A study of Mus musculus with 6 samples.

Results

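The endoplasmic reticulum (ER) folds secreted and membrane proteins, and a set of 31 of its genes was examined in mouse retina: the sensors of unfolded protein, the chaperones and disulfide isomerases, and the machinery of ER-associated degradation. The members were given as a list of gene symbols, with targets of ATF4 left out, and each of the 31 symbols matched 1 of the 55450 genes in the deposited table. Retinal RNA came from C57BL/6 mice aged 8 weeks, with 3 samples labelled Myrf-kd, from Myrf +/− mice, and 3 labelled WT, from wild-type mice. The allele and the part of Myrf it alters are not given in the sources used here. Myrf encodes a membrane-anchored transcription factor that cuts itself at the ER membrane and is known for driving myelin genes in oligodendrocytes.

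When unfolded protein builds up in the ER, the kinase and nuclease IRE1 (gene Ern1), the kinase PERK (gene Eif2ak3) and the membrane-bound factor ATF6 respond. IRE1 splices the messenger of Xbp1 so that it encodes an active transcription factor, and ATF6 is cut in the Golgi to release its own. Both factors raise genes of chaperones and of ER-associated degradation, in which misfolded proteins are drawn back to the cytosol and destroyed. Photoreceptors pass large amounts of membrane protein through the ER, since they renew their outer segments throughout life.

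The ER stress response element (ERSE) is the site through which ATF6 and XBP1 are known to act together with the factor NF-Y. Both factors raise genes of the kinds listed here, so the share of members with a match is not independent of the list's choice. RefSeq promoter windows of build GRCm38.p6, from 250 bases before to 50 bases after the start site, matched 27 of the 31 members. Atf6, Hyou1, Manf and Derl1 were not matched. The ERSE was searched as CCAAT and CCACG with 9 bases of any kind between them, and the related ERSE-II as ATTGG and CCACG with 1 base between them, on both strands. An ERSE was found in 9 of the 27 members (33.3%), and in 39 of all 32851 promoter windows of the same length (0.119%). The matches in the members are given in the orientation of the motif, with the fixed letters in capitals.
Hspa5: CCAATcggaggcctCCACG
Hsp90b1, farther from the start: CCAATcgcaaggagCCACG
Hsp90b1, nearer to the start: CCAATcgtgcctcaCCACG
Calr: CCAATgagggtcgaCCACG
Canx: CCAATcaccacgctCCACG
Pdia6: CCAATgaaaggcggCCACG
Dnajc3: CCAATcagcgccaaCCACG
Creld2: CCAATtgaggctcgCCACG
Syvn1: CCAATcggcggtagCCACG
Derl3: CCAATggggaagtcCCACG

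The Hspa5 match lay at chr2:34772025-34772043 on the plus strand, from −65 to −47 relative to the RefSeq start site. Hsp90b1 held matches from −212 to −194 and from −107 to −89, the nearer one on the strand opposite to the gene. The matches in Calr, Creld2 and Derl3 were also on the opposite strand. ERSE-II was found in Herpud1, from −52 to −42, and in Dnajb11, from 8 to 18, against 12 of the 32851 windows (0.0365%). The element bound by XBP1 and ATF6 without NF-Y, searched as TGACGTGG, was in 0 of the 27 members and in 0.676% of the windows, and its variant TGACGTGA was in Hspa5 and in 0.441% of the windows. No matches of these 4 motifs overlapped one another in the members. Such a match is a string of letters, and binding was not measured.

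**Figure D1:**
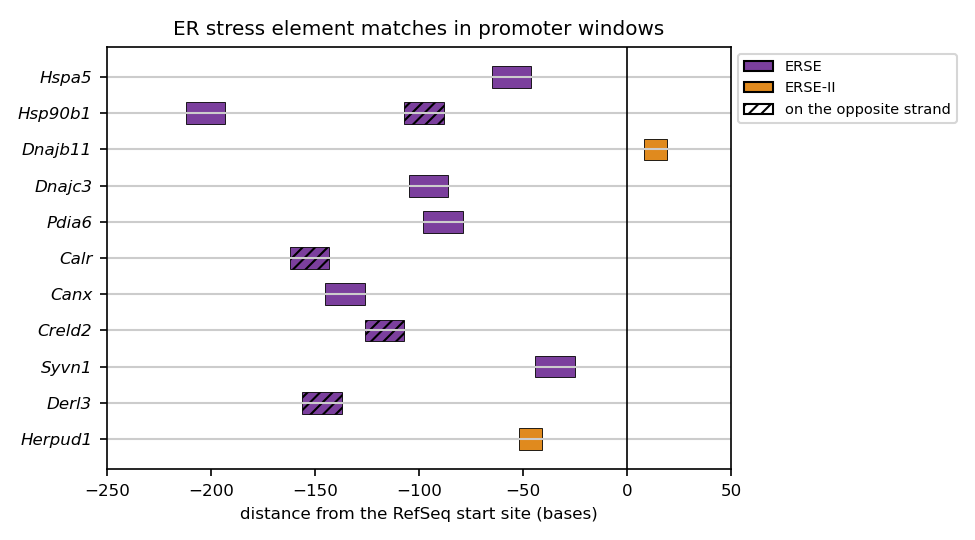
Positions of ERSE and ERSE-II matches in the promoter windows of the 11 members that hold one, as the distance in bases from the RefSeq start site at 0; purple boxes are ERSE, orange boxes ERSE-II, and hatched ones lie on the strand opposite to the gene. The matches lie between −212 and 18, and all but that of Dnajb11 are upstream of the RefSeq start site. The ERSE of Hspa5 lies past the gene's start in the deposited table.

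The upstream stretches of 3 members are printed, since Hspa5 and Herpud1 are genes whose libraries separated by genotype and Calr was the most abundant member. They are credited to RefSeq and end before the gene's start in the deposited table as well. Capitals mark TGACGTGA in Hspa5 (chr2:34771840-34771969, plus strand), ERSE-II in Herpud1 (chr8:94386179-94386428, plus strand) and the reverse complement of the ERSE in Calr (chr8:84846935-84847181, minus strand), with positions on GRCm38.
Hspa5: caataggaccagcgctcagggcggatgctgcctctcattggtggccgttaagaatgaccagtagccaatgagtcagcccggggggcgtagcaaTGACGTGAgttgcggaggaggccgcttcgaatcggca
Herpud1: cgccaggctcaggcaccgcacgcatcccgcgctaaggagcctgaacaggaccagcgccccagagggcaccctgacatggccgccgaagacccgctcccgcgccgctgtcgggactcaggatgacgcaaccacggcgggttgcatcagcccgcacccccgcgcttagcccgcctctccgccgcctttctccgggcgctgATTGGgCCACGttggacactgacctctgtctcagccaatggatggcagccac
Calr: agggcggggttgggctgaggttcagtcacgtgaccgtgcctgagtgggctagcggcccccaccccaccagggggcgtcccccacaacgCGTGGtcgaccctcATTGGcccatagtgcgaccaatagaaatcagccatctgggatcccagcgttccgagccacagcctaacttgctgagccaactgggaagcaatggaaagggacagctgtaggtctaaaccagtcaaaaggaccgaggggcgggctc

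The libraries held 50695091 to 70298511 estimated count units, with about 4 units per sequenced fragment. Myrf was listed at 0.279, 0.382 and 0.351 FPKM (fragments scaled to transcript length and library total) in Myrf-kd 1, 2 and 3 and at 0.359, 0.397 and 0.463 FPKM in WT 1, 2 and 3, so its groups overlapped. Myrf-kd 3 stood apart from the other 5 libraries on principal component 1, which held 29.8% of the variance, with a score of 34.1 against −16.3 to −0.87. Xist and Y-linked genes marked WT 3 and Myrf-kd 3 as female and the other 4 libraries as male. Rod markers (Sag, Pde6b, Gnat1, Nrl and Cnga1) checked the tissue label: all 5 were at 1 FPKM or more, with overlapping summed levels of 20579 to 22740 CPM over Myrf-kd against 22006 to 23564 CPM over WT. CPM stands for count units scaled to the normalized library total. Since both sexes occur in each group, each held RNA of at least 2 animals. The labels do not say whether all 3 samples of a group were separate animals, so part of the spread that the p-values rest on may be technical.

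The ER genes ranged widely in abundance, and the most abundant were the calcium-binding and Hsp90-class chaperones. Per transcript length, Calr (calreticulin, a lectin chaperone that buffers calcium) was listed at a mean of 147 FPKM over the 6 libraries and Hsp90b1 (GRP94, the Hsp90 of the ER) at 124 FPKM. Canx (calnexin, the membrane-bound lectin chaperone) followed at 81.8 FPKM. The disulfide isomerase genes P4hb and Pdia3 were at 67.8 and 67.7 FPKM, and Hspa5 (BiP, the Hsp70 of the ER) was at 55.6 FPKM. Of the 31 members, 2 were above 100 FPKM, 6 between 40 and 100, 13 between 10 and 40 and 10 under 10 FPKM. The sensors were low by comparison, at 12.6 FPKM for Atf6, 8.999 for Eif2ak3 and 7.57 for Ern1, while Xbp1 was at 25.1 FPKM. The least abundant were Sdf2l1 (2.34 FPKM), Edem1 (2.38) and Derl3 (0.297 FPKM). Derl3, a derlin known from secretory cells such as plasma cells, was the only member under the minimum mean of 1 FPKM used for testing, and it was added to the fit. Of 5 plasma cell markers, 1 (Jchain) reached a mean of 1 FPKM, and Ighg1 was at 0 in all 6 libraries. The summed level of these markers was 13.3 to 17.3 CPM over Myrf-kd against 13.9 to 19.0 CPM over WT. Jchain held most of this sum in every library, so the sum largely reflects a single gene. In the deposited annotation 27 of the 31 members (87.1%) carry the KEGG term for protein processing in the ER, against 153 of the 13674 tested genes (1.12%), members included. The members were listed for such roles, so this share is not independent of the list's choice.

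**Figure D2:**
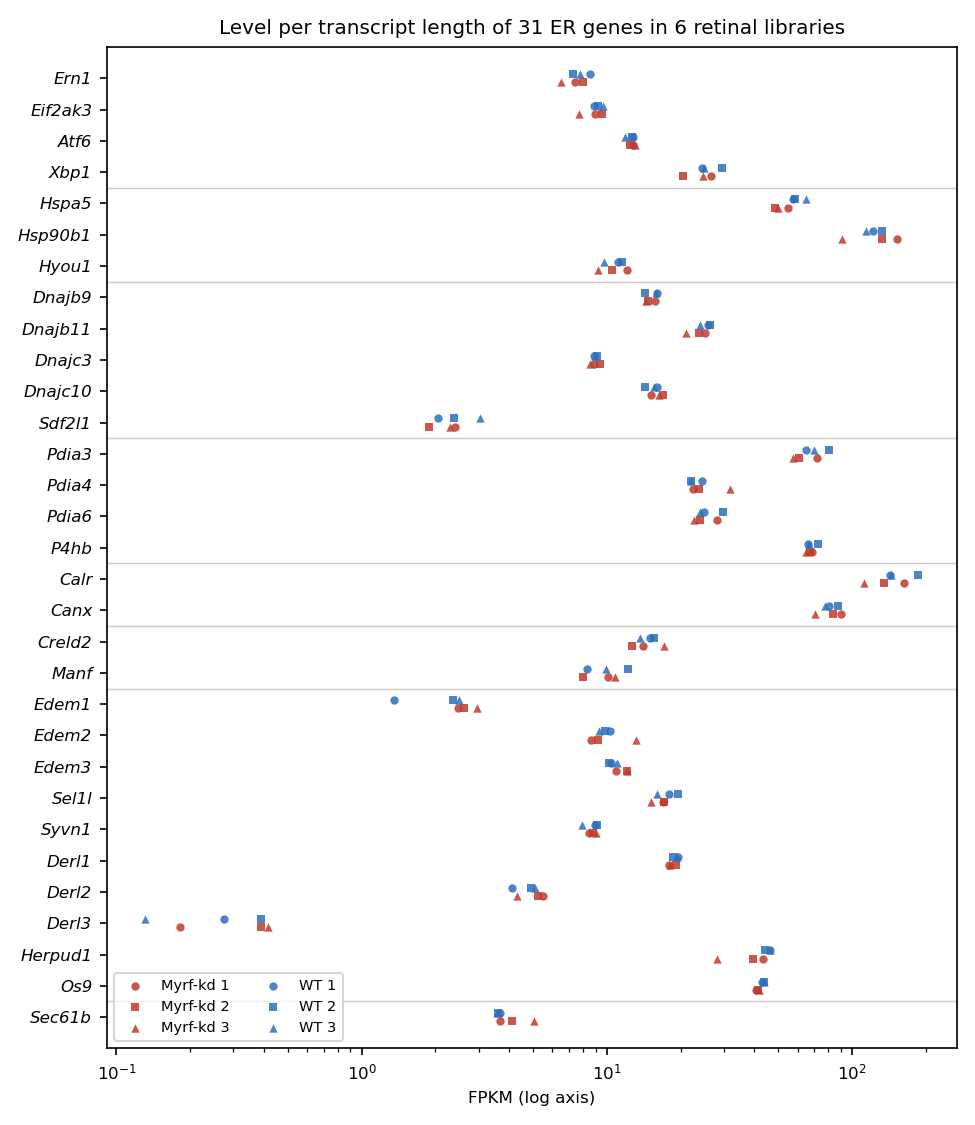
FPKM of the 31 ER genes on a log axis, 1 point per library, red for Myrf-kd and blue for WT, with lines between groups of genes by role. Levels run from 0.297 FPKM (Derl3, mean of 6 libraries) to 147 FPKM (Calr), and the libraries of a gene lie close together next to the differences between genes.

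No ER gene differed between the genotypes after adjustment. Of the 31 members, 0 passed the test (quasi-likelihood test of edgeR, adjusted by Benjamini-Hochberg over 13674 genes, threshold 0.05), where 6 genes (0.0439%) passed over the whole table. Only Hspa5 had an unadjusted edgeR p under 0.05, 1 of 31 (3.23%), against 7.47% of all tested genes. DESeq2 and limma on FPKM also called 0 members, with 2 and 1 at an unadjusted p under 0.05, against 7.88% and 7.44% of all tested genes. The estimate was lower in Myrf-kd in 20 members (64.5%) and higher in 11, while 48.9% of all tested genes had a lower estimate. The median log2 fold change was −0.06 over the members and 0.00 over all genes. Without WT 2 the member median was 0.02, with 15 members lower, so its direction turned on that library. For 25 of the 31 members the 95% interval of the ratio of Myrf-kd to WT lay within 1.5-fold in both directions, and for 30 within 2-fold. The interval of Derl3 reached from 0.561 to 2.62. RNA of whole retina does not tell fewer cells of a type from less RNA per cell.

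**Figure D3:**
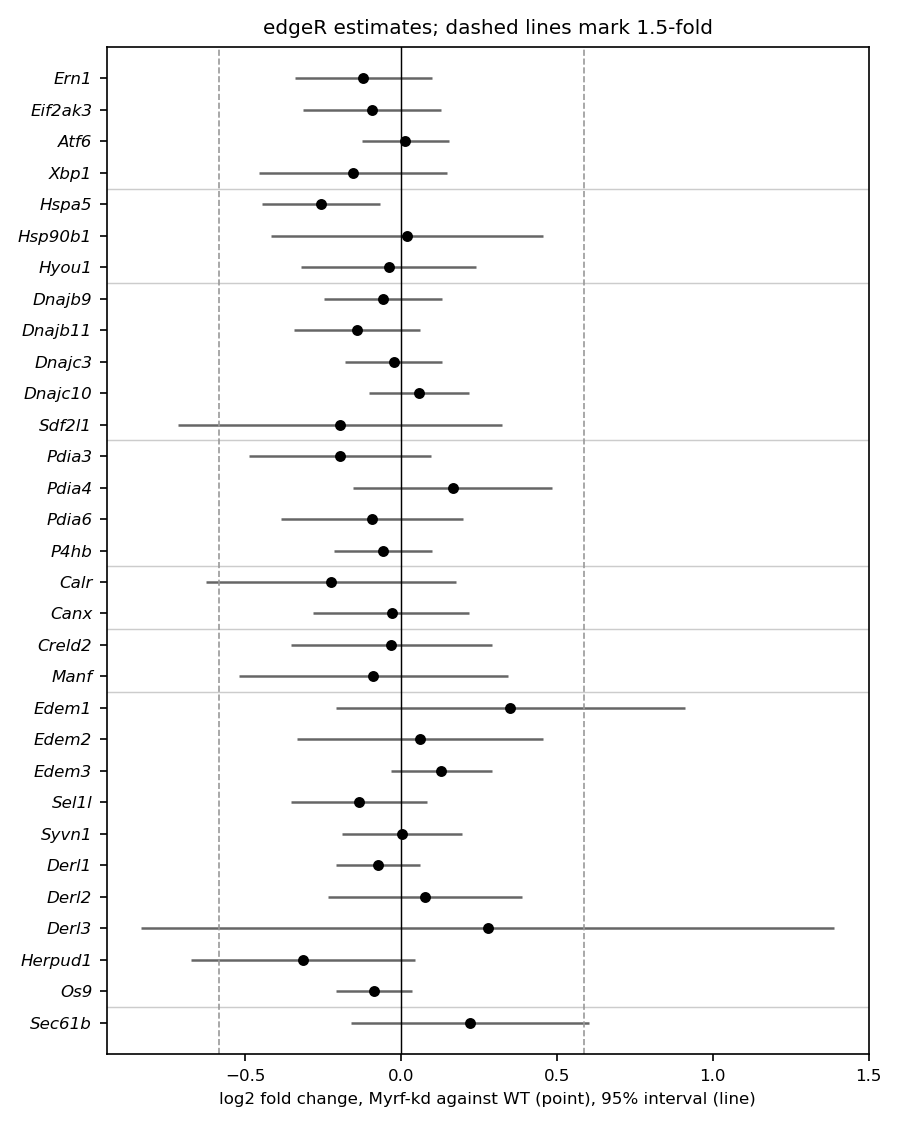
Log2 fold change of Myrf-kd against WT for the 31 ER genes by edgeR (points) with the 95% interval (lines), grouped by role; dashed lines mark 1.5-fold. Of the 31 intervals, 25 lie between the dashed lines, and that of Hspa5 lies wholly below 0 before any adjustment over genes.

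The sensors showed no separation by genotype. Ern1, whose product is the sensor conserved from yeast, was at 69.8, 73.9 and 61.2 CPM in libraries Myrf-kd 1, 2 and 3, against 79.7, 69.6 and 73.4 CPM in WT 1, 2 and 3. Eif2ak3, whose kinase slows translation under ER stress, was at 62.4, 65.6 and 53.3 CPM in the Myrf-kd libraries, against 60.8, 65.3 and 67.3 CPM in the WT libraries. Both had their lowest level in Myrf-kd 3 and otherwise overlapped. Atf6 was the steadiest of the sensors, at 136, 130 and 138 CPM in the Myrf-kd libraries, against 135, 138 and 127 CPM in the WT libraries. Xbp1, the target of IRE1 splicing, was at 99.8, 75.5 and 91.9 CPM in the Myrf-kd libraries, against 91.0, 112 and 94.0 CPM in the WT libraries. Its highest level was in WT 2 and its lowest in Myrf-kd 2. The log2 fold changes (± SE) were −0.12 ± 0.09 for Ern1, −0.09 ± 0.09 for Eif2ak3, 0.01 ± 0.06 for Atf6 and −0.15 ± 0.13 for Xbp1. The adjusted p-values by edgeR were 0.750, 0.801, 0.966 and 0.766. These are values summed over each gene, so spliced and unspliced Xbp1 were not told apart, and neither cleavage of ATF6 nor phosphorylation was measured.

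Hspa5 had the smallest unadjusted p of the members. BiP binds unfolded chains and holds the sensors inactive while the ER is unstressed. The gene (ENSMUSG00000026864, chr2:34771970-34777547, plus strand, GRCm38) had levels of 266, 232 and 243 CPM in libraries Myrf-kd 1, 2 and 3. The corresponding WT libraries held 277, 291 and 317 CPM. The 3 Myrf-kd libraries all lay below the 3 WT libraries, by a narrow gap between Myrf-kd 1 and WT 1. Among male libraries that is 266 and 232 against 277 and 291 CPM, and among the female ones 243 against 317 CPM. The means were 247 ± 17.5 CPM over Myrf-kd against 295 ± 20.6 CPM over WT (SD, n = 3 each), a ratio of 0.837 with a 95% interval from 0.734 to 0.954. Its log2 fold change was −0.26 ± 0.08 SE, and it did not pass (edgeR adjusted p = 0.667). Over all alternatives the estimate stayed between −0.31 and −0.20, with an adjusted p between 0.356 and 0.923 by the tool of each alternative.

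Of the marker sums of other eye tissues, those of surface epithelium, fibroblasts and sclera, and pigment epithelium were lower on average in Myrf-kd. The lens sums were not, at 0.189 to 60.2 CPM over Myrf-kd around the 13.6 to 23.3 CPM over WT. The summed cornea and surface epithelium markers, of which 3 of 6 reached a mean of 1 FPKM, were at 1.73 to 6.82 CPM over Myrf-kd against 15.5 to 23.5 CPM over WT. Within that list Krt5 was at 0 in Myrf-kd 1, and Krt14 was at 0 in Myrf-kd 1 and WT 1. The fibroblast and scleral markers, of which 0 of 5 reached 1 FPKM, summed to 15.96 to 27.9 CPM over Myrf-kd against 31.7 to 38.6 CPM over WT. The pigment epithelium markers, of which 5 of 6 reached 1 FPKM, summed to 112, 123 and 163 CPM in the Myrf-kd libraries, against 150, 164 and 198 CPM in the WT ones. The cornea and fibroblast sums did not overlap between the groups, and the pigment epithelium sums did. Within Myrf-kd the cornea and pigment epithelium sums were lowest in Myrf-kd 1, where Hspa5 was highest, and the fibroblast sum was highest there. The part of these sums in the Hspa5 result was not tested.

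The other chaperones of this class did not separate by genotype. Hsp90b1 was at 712, 606 and 421 CPM in libraries Myrf-kd 1, 2 and 3, against 558, 626 and 531 CPM in WT 1, 2 and 3. Its highest and its lowest library were both Myrf-kd, 1.69-fold apart, and its log2 fold change was 0.02 ± 0.18 SE (edgeR adjusted p = 0.982). Genes of at least 1 FPKM overlap Hsp90b1 in the annotation, as they do Pdia3, Manf and Syvn1, and reads of overlapping genes may be shared between them. Hyou1, which encodes a large Hsp70-like partner of BiP, was at 87.9 ± 12.2 CPM over Myrf-kd against 90.4 ± 8.34 CPM over WT (SD, n = 3 each). Of the DnaJ co-chaperones and Sdf2l1, 5 genes in all, 4 had lower estimates. Dnajb11, a co-chaperone that delivers unfolded chains to BiP, had the smallest unadjusted p among them, at 93.8, 87.3 and 77.8 CPM in the Myrf-kd libraries, against 95.5, 99.9 and 90.3 CPM in the WT libraries. Its groups overlapped through Myrf-kd 1 and WT 3 (log2 fold change −0.14 ± 0.09 SE, edgeR adjusted p = 0.706). Dnajb9, a BiP co-chaperone that represses IRE1, and Dnajc3, also called P58IPK, had log2 fold changes of −0.06 and −0.02. Dnajc10, a co-chaperone that also reduces disulfides, had a log2 fold change of 0.06. Sdf2l1, which forms a complex with Dnajb11, was at 2.79 ± 0.373 CPM over Myrf-kd against 3.197 ± 0.660 CPM over WT (SD, n = 3 each).

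The disulfide isomerases and lectin chaperones, which fold glycoproteins, overlapped between the groups. Pdia3 (ERp57), the isomerase that works with calnexin and calreticulin, was at 261, 217 and 206 CPM in libraries Myrf-kd 1, 2 and 3, against 233, 298 and 254 CPM in WT 1, 2 and 3. Calr was at 542, 440 and 370 CPM in the Myrf-kd libraries, against 471, 630 and 480 CPM in the WT libraries. In both genes WT 2 was highest and Myrf-kd 3 lowest. The log2 fold changes were −0.20 ± 0.12 SE for Pdia3 and −0.23 ± 0.17 SE for Calr (edgeR adjusted p = 0.716 and 0.748). Without WT 2 that of Calr was −0.08. Canx was at 437 ± 54.1 CPM over Myrf-kd against 447 ± 32.9 CPM over WT (SD, n = 3 each). Pdia6 and P4hb, a pair of thioredoxin-type isomerases, had log2 fold changes of −0.09 and −0.06. Pdia4 was the isomerase with a higher estimate, 0.17, and its highest library was Myrf-kd 3, at 87.1 CPM against 61.4 to 67.1 CPM in the other 5. Without Myrf-kd 3 its log2 fold change was −0.01.

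The secreted ER stress proteins spanned the groups. Manf, which encodes a neurotrophic factor held in the ER, was at 41.2, 32.0 and 43.7 CPM in libraries Myrf-kd 1, 2 and 3, against 33.4, 50.6 and 40.5 CPM in WT 1, 2 and 3. WT 2 was highest and Myrf-kd 2 lowest (log2 fold change −0.09 ± 0.18 SE, edgeR adjusted p = 0.911). Creld2, whose product has isomerase activity, was at 22.9 ± 3.69 CPM over Myrf-kd against 23.4 ± 1.66 CPM over WT (SD, n = 3 each).

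Of the 10 genes of ER-associated degradation, 4 had lower and 6 higher estimates. Herpud1, whose product recruits the ubiquitin ligase complex, was at 117, 105 and 75.4 CPM in libraries Myrf-kd 1, 2 and 3, against 123, 121 and 126 CPM in WT 1, 2 and 3. The gene is ENSMUSG00000031770 (chr8:94386438-94395377, plus strand, GRCm38). All 3 Myrf-kd libraries lay below the WT libraries, and Myrf-kd 3 was far below the other 2. The WT libraries had a coefficient of variation of 1.98% and the Myrf-kd libraries one of 21.5%. The ratio was 0.804, and its 95% interval reached from 0.626 to 1.03 (fold change on the log2 scale −0.32 ± 0.15 SE, edgeR adjusted p = 0.693), and without Myrf-kd 3 the log2 fold change was −0.15. Lens markers, of which 4 of 7 reached a mean of 1 FPKM, summed to 60.2 CPM in Myrf-kd 3, to 0.586 and 0.189 CPM in Myrf-kd 1 and 2 and to 13.6 to 23.3 CPM in WT. Cryba1, Crybb2 and Crygs were at 0 in Myrf-kd 1 and 2. The part of lens RNA in the low Herpud1 level of Myrf-kd 3 was not tested.

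None of the remaining genes of this group passed the test. Os9, a lectin that picks out misfolded glycoproteins, was at 124 ± 1.41 CPM over Myrf-kd against 132 ± 3.11 CPM over WT (SD, n = 3 each). Derl1, a derlin of the retrotranslocation complex, was at 70.1 ± 1.81 and 73.8 ± 1.12 CPM. In both genes the groups did not overlap, though the ratios were 0.941 and 0.950 (edgeR adjusted p = 0.702 and 0.748). Syvn1 (HRD1, the ubiquitin ligase of the complex) was at 48.7 ± 1.36 CPM over Myrf-kd against 48.7 ± 3.79 CPM over WT. Sel1l, the partner that stabilizes it, was at 161 ± 10.8 and 177 ± 18.4 CPM. The mannose-trimming genes Edem1, Edem2 and Edem3 all had higher estimates, with log2 fold changes of 0.35, 0.06 and 0.13. For Edem1 the library WT 1 was low, at 10.1 CPM against 17.99 to 22.0 CPM in the other 5, and without WT 1 its log2 fold change was 0.11. Edem2 reached 52.5 CPM in Myrf-kd 3 and lay between 34.6 and 40.9 CPM elsewhere. Without Myrf-kd 3 its estimate was −0.16. Derl2 and Derl3 had log2 fold changes of 0.08 and 0.28, the latter with an SE of 0.47.

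Sec61b, a small subunit of the channel through which proteins enter the ER, was at 5.39, 5.94 and 7.37 CPM in libraries Myrf-kd 1, 2 and 3, against 5.37, 5.39 and 5.29 CPM in WT 1, 2 and 3. Every Myrf-kd library lay above the WT libraries, with Myrf-kd 1 above WT 2 by less than the rounding of these values. The log2 fold change was 0.22 ± 0.16 SE (edgeR adjusted p = 0.744), and without Myrf-kd 3 it was 0.08. By CPM, Sec61b was the 1 member higher in all Myrf-kd libraries, where 7.18% of all tested genes were, and 4 members were lower in all of them, where 7.44% were. Together the groups did not overlap in 5 of 31 members (16.1%), close to the 14.6% of all tested genes. With fewer libraries to overlap, the count was 13 without Myrf-kd 1 (41.9%, against 28.5% of all tested genes) and 9 without WT 3 (29.0%, against 21.7%). It was below the share of all genes without Myrf-kd 2 (5, 16.1% against 22.9%) and without Myrf-kd 3 (7, 22.6% against 25.8%). The same held without WT 1 (7, 22.6% against 28.9%) and without WT 2 (6, 19.4% against 22.5%).

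**Figure D4:**
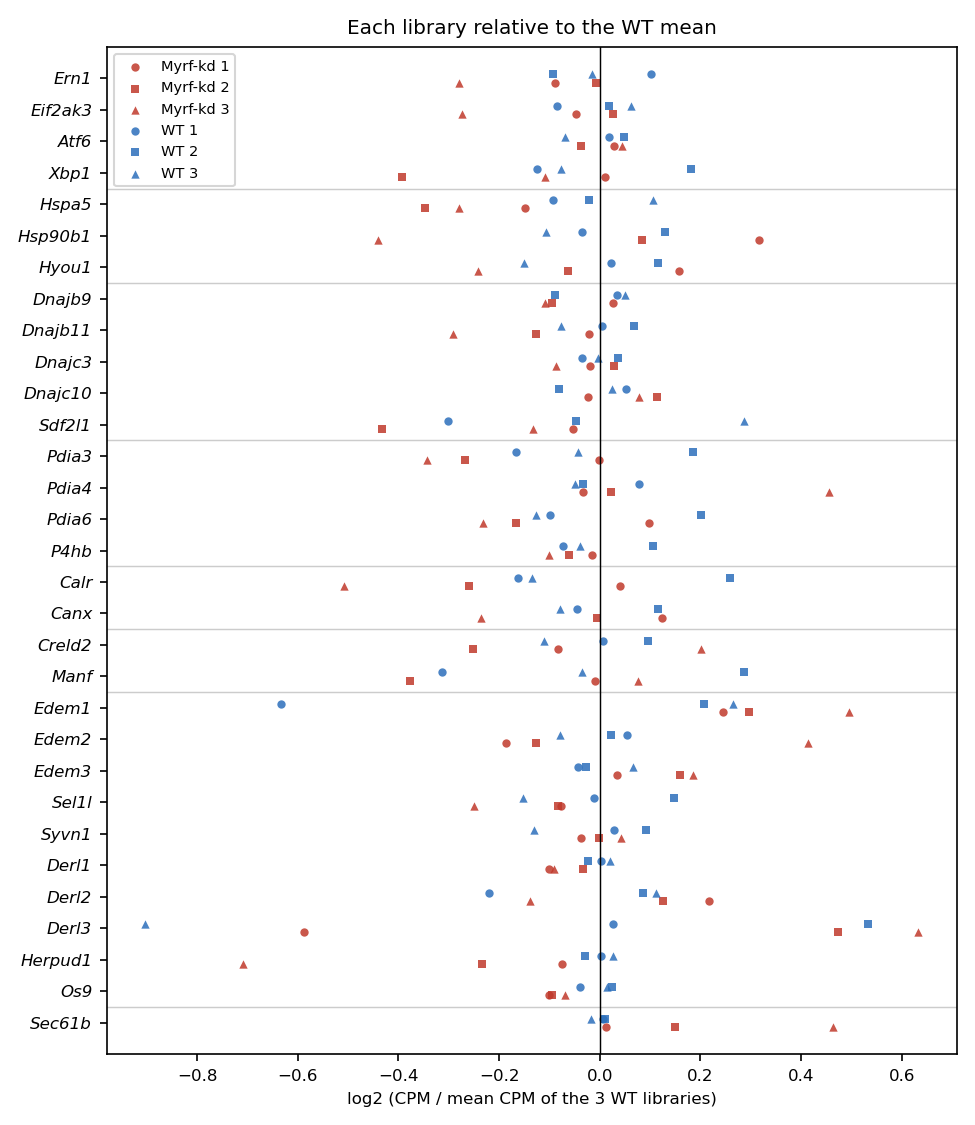
Log2 ratio of each library's CPM to the mean of the 3 WT libraries for the 31 ER genes; red symbols are Myrf-kd, blue symbols WT, and circle, square and triangle are replicates 1, 2 and 3. The red triangles (Myrf-kd 3) lie lowest in 14 genes, among them Calr, Hsp90b1 and Herpud1, and highest in 7, among them Pdia4, Edem1 and Edem2.

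The members also varied between libraries of the same genotype. Myrf-kd 3 held the lowest level of 14 members (45.2%), against 25.2% of all tested genes, and WT 2 the highest level of 12 members (38.7%), against 17.6% of all tested genes. WT 2 was lowest in 1 member. The abundant folding genes Calr, Pdia3, Pdia6 and P4hb had both features, with Myrf-kd 3 lowest and WT 2 highest, and so did Dnajb11, Dnajc3 and Sel1l. In Hsp90b1, Canx and Hyou1 Myrf-kd 3 was lowest and Myrf-kd 1 highest. Summed over the members, the level was 4208, 3804 and 3456 CPM in libraries Myrf-kd 1, 2 and 3, against 3888, 4373 and 3912 CPM in WT 1, 2 and 3. Myrf-kd 1 thus lay within the range of the WT libraries, and Myrf-kd 2 and 3 below it. The members' median coefficient of variation was 12.4% in Myrf-kd and 7.00% in WT, and over all genes it was 9.93% and 8.09%. No other Myrf-kd library was female, and Myrf-kd 3 also stood apart on the first principal component, so the parts of sex and of that library in this spread cannot be told apart. WT 3, the other female library, was lowest in 5 members and highest in 6.

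**Figure D5:**
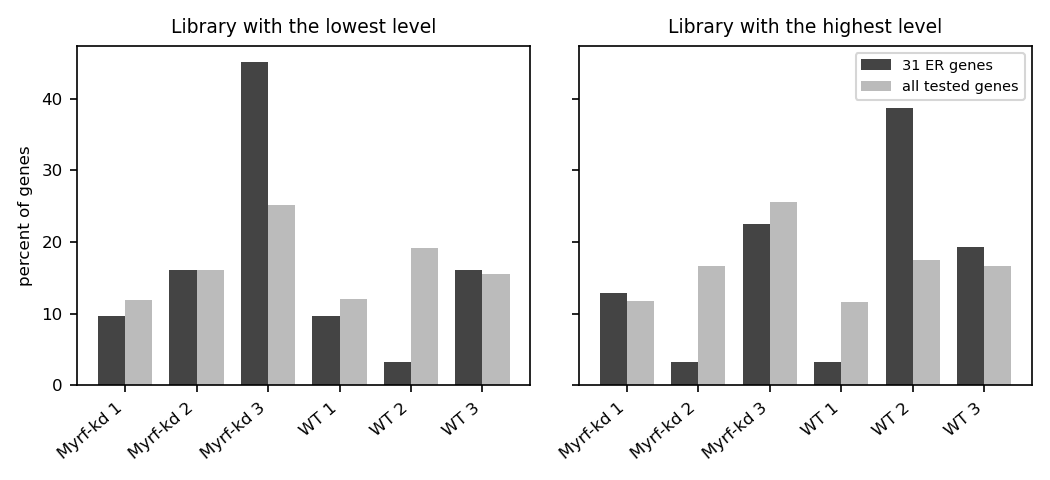
Percent of genes for which each library holds the lowest (left) or the highest (right) of the 6 CPM values, for the 31 ER genes (dark bars) and all 13674 tested genes (light bars). Myrf-kd 3 is lowest in 45.2% of the ER genes and 25.2% of all genes, and WT 2 highest in 38.7% and 17.6%.

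The members with an ERSE or ERSE-II were set beside the members without one, and the difference between them was not tested. Of the 11 members with such a match 8 had lower estimates in Myrf-kd, with a median log2 fold change of −0.03. Of the 16 members with a promoter window but no such match 9 were lower, with a median of −0.06. Over all tested genes 48.9% had a lower estimate. The 11 with a match spanned −0.32 (Herpud1) to 0.28 (Derl3), and the 16 without one −0.20 (Sdf2l1) to 0.35 (Edem1). Myrf-kd 3 was the lowest library in 7 of the 11 and in 6 of the 16, and in 25.2% of all tested genes. The sets also differed in abundance, with a median of 25.6 FPKM over the 11 and 13.1 FPKM over the 16.

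The rest of the ER folding pathway was followed in 82 further genes on 5 lists, of which 78 were tested. Of these 78, 0 passed (quasi-likelihood test of edgeR, adjusted over all genes), with 5 at an unadjusted p under 0.05 (6.41%, against 7.47% of all tested genes). DESeq2 and limma also called 0. The median log2 fold change of the 78 was 0.02, and −0.01 without Myrf-kd 3. Myrf-kd 3 did not lie low over the related genes, with a summed level of 7004 CPM against 6653 to 6915 CPM in the other 5 libraries. The directions within each list are given as counts and were not tested. Over all tested genes 48.9% had a lower estimate. Genes of glycan addition and glycan quality control had higher estimates in 10 of 13, among them Lman1, a cargo receptor, at 209 ± 6.30 CPM over Myrf-kd against 186 ± 8.96 CPM over WT (SD, n = 3 each). Ddost, a subunit of the oligosaccharyltransferase, was at 51.7 ± 1.89 and 46.2 ± 2.99 CPM. Genes of translocation and signal peptide removal were higher in 11 of 15. Their summed level was highest in Myrf-kd 3, at 1185 CPM against 964 to 1048 CPM in the other 5 libraries. Spcs3, a signal peptidase subunit, was at 30.9 ± 0.839 and 27.2 ± 1.58 CPM. Sec61a1, the channel itself, was at 79.2 ± 3.10 and 73.1 ± 3.73 CPM. Other folding enzymes were higher in 12 of 19 tested. There the isomerase gene Pdia5 was at 59.7 ± 5.12 and 48.3 ± 7.34 CPM and the co-chaperone gene Dnajc1 at 35.9 ± 3.71 and 25.8 ± 8.97 CPM.

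Other genes of ER-associated degradation had lower estimates in 13 of 22 (59.1%, against 48.9% of all tested genes). The ubiquitin ligase gene Rnf139 was at 58.0 ± 4.05 CPM over Myrf-kd against 68.3 ± 3.31 CPM over WT (SD, n = 3 each). Ube2j1, the ubiquitin-conjugating enzyme that serves Syvn1, was at 217 ± 11.3 and 240 ± 4.69 CPM. The groups of both genes did not overlap, and neither did those of Lman1, Ddost and Spcs3 above, which were higher in Myrf-kd. Over the 78 related genes tested, groups did not overlap in 11 (14.1%, against 14.6% of all tested genes). Of those, 5 were lower and 6 higher in Myrf-kd. Of the other sensors, proteases and membrane regulators, 6 of 9 tested had higher estimates, with Traf2, an adaptor of IRE1, at 24.7 ± 1.63 and 20.6 ± 0.750 CPM and Mbtps2, the protease that makes the last cut in ATF6, at 29.7 ± 2.63 and 25.5 ± 2.90 CPM. Rnf139, Traf2, Lman1, Ube2j1 and Pdia5 had an unadjusted p under 0.05, and each had an edgeR adjusted p of 0.667.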

How the data were processed

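Retinal RNA of 3 Myrf-kd and 3 WT samples was compared, with groups and replicate numbers from the sample titles. Per the submitters' processing notes, the tools were Bowtie 0.12.2, HISAT2 2.0 and StringTie 1.3.0 and the build GRCm38; what each was used for is not given. The authors deposited an FPKM and an estimated count per gene and library, per the file headers. Counts were whole, and rounding changed none. A value of 4 units was more frequent than 1, 2, 3 or 5 units, and 1 fragment was therefore read as about 4 units.

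Derl3 and all genes whose mean FPKM reached 1 were tested with edgeR 4.0.16 (quasi-likelihood, TMM factors, genotype as the only term, two-sided, Benjamini-Hochberg adjustment over 13674 genes) on the estimated counts. The SE is the log2 fold change over the root of F. DESeq2 1.42.0 and limma 3.58.1 on log2(FPKM + 1) were alternatives, beside other pseudocounts, factors and filters, a replicate block, sex and the omission of each library. The fit was tested on simulated data. Within a group all pairs of libraries differed beyond sampling noise (lowest chi-square 18.5 per degree of freedom).

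Members and lists were chosen with earlier results of these data known. All members are named, with values per library for the sensors, Xbp1, Hspa5 and the smallest p in each role group. Of the related lists the 2 genes with the smallest p are named. Hsp90b1 was added to those with values per library after its values were seen. Promoter windows were RefSeq's (GRCm38.p6), and motifs were searched as exact letters. One listed marker gene is not reported here, and its list was summed without it.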

Additional observations from a re-analysis of the deposited data

How the results depend on the processing

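In 17 alternatives 0 members and 0 related genes passed, and 18 of 31 members kept the direction of their estimate in all of them. Over all genes, 6 passed, and 53 did with DESeq2, 2 with a mean FPKM of at least 5 and 0 with the replicate block (9 to 16 without 1 library each: 10 without Myrf-kd 1, WT 1 or WT 2, 13 without WT 3 and 16 without Myrf-kd 3). Members at an unadjusted p under 0.05 were 2 with DESeq2 and 2 with sex as a term, each 6.45% against 7.88% and 7.34% of all genes. Without 1 library they were 0 to 3: 3 without Myrf-kd 1 (9.68%, against 9.24%) and 0 without Myrf-kd 2 or WT 3 (against 5.42% and 3.84%). Groups did not overlap in 3 members on FPKM, with either pseudocount of the limma fit (9.68%, against 14.5% of all genes), and in 5 to 13 without 1 library (16.1% to 41.9%, against 21.7% to 28.9% of all genes). The member median lay between −0.1016 and 0.0186 (without WT 2) when 1 library was left out. The related median was 0.0469 with library totals only, and between −0.0104 (without Myrf-kd 3) and 0.0254 without 1 library. With library totals only, the median over all genes was 0.04. That fit leaves out the TMM factors, which were 1.0011, 1.02 and 1.0125 in Myrf-kd 1, 2 and 3 and 0.9945, 0.9881 and 0.9843 in WT 1, 2 and 3. Why these factors differed between the groups was not tested.

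Of 30 reversals of a member's estimate, 22 came from leaving out a library. The other 8 were Hsp90b1 with the replicate block (−0.0102) and with sex (−0.0081), Dnajc3 (0.0075), Canx (0.0004) and Creld2 (0.0004) with library totals only, and Syvn1 with DESeq2 (−0.0008), RLE factors (−0.0012) and no filter (−0.0021). Without 1 library the log2 fold change spanned −0.021 to 0.037 for Atf6, −0.1155 to 0.0601 for Canx, −0.1647 to 0.067 for Creld2, −0.0243 to 0.1706 for Derl2 and −0.0308 to 0.6316 for Derl3. It spanned −0.0523 to 0.0042 for Dnajc3, −0.1573 to 0.169 for Edem2, −0.1547 to 0.2036 for Hsp90b1, −0.1491 to 0.0511 for Hyou1 and −0.2241 to 0.078 for Manf. It spanned −0.006 to 0.2549 for Pdia4, −0.1991 to 0.0186 for Pdia6 and −0.0588 to 0.0504 for Syvn1.

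Deviations from the group mean correlated at −0.048, 0.015 and 0.095 in same-numbered libraries, and at −0.102 to 0.092 in those of unlike number. With 3 libraries a group these values cannot decide whether the samples were paired. The replicate block left 1 member at an unadjusted p under 0.05 by edgeR, with a member median of −0.06. With 3 libraries a group and a biological coefficient of variation of 20.3%, a gene that did not pass is not shown to be unchanged.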
